A study of Mus musculus with 60 samples.

Results

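The sine oculis homeobox genes were followed through H3K27me3 peak lists of the mouse mesenchymal progenitor line C3H 10T1/2, whose cells carried HA-tagged histone H3. The 5 genes described, Six2, Six3, Six4, Six5 and Six6, are 5 of 21938 protein-coding genes in the annotation, and they were chosen by H3K27me3 values measured in these same lists, so their H3K27me3 values are given as a description with no test. Each gene was examined over its window, meaning the gene body with 50 kb on each side (mm10).

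Proteins of this family bind DNA through their homeodomain, and they act with Eya coactivators and Dach corepressors in the network that shapes eye, muscle, kidney and sensory organs. H3K27me3 is the repressive mark written by Polycomb Repressive Complex 2, and in cells of other lineages it commonly covers the genes of developmental transcription factors as broad domains. In such a domain the mark usually extends well beyond the start site of the gene.

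In CUT&RUN an antibody brings a nuclease to its target in chromatin, and the DNA cut free is sequenced. It was applied to cells with wild-type H3 (H3WT) or H3 with arginine 2, 8, 17 or 26 of the tail changed to cysteine (H3R2C, H3R8C, H3R17C, H3R26C). Every group, H3WT included, held a lentiviral transgene for H3.1 with HA and FLAG tags under the EF1 promoter, and the cells were puromycin-selected pools of Clone 8 that kept their own H3 genes. The series held 60 samples in 5 genotypes with 4 antibodies or controls and 3 labelled replicates each. The 30 samples with anti-H3K27me3 and anti-HA were used, and the 30 with IgG and anti-H3K4me3 were not analysed here. Because whole pools were profiled, a weaker mark in every cell and its absence from some of the cells cannot be told apart.

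In each group 2 of the 3 lists were identical and were counted once, which left the independent libraries called 1-2 and 3 here. H3R17C with anti-H3K27me3 had the single library 2-3, since its replicate 1 was set aside (its list bears the name of another mark than its label). The 9 H3K27me3 lists held 20077 to 24598 peaks over 64.2 to 130.0 Mb. The lowest total signal in a list, the level a block of coverage passed to be listed, ran from 3400 to 8050 (coverage summed over bases). The 10 HA lists were less alike, since H3WT 1-2 listed 15344 peaks, of median width 10.7 kb, down to a total signal of 43200, whereas the 8 mutant lists had 46398 to 52083 peaks whose median widths were 0.8 to 1.6 kb. In both H3WT libraries 0 of 7 mesenchymal markers and 0 of 5 housekeeping genes had an H3K27me3 peak over the start, against 4 of 5 neural genes.

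Six6, Six3 and Six2 together show the range of states in the family. In H3WT, Six6 and Six3 lay under broad H3K27me3 domains, whereas Six2 had no H3K27me3 peak in its window. Their promoters are printed to show the sequence that each state covered, from 250 bases before to 50 bases after the start in RefSeq (GRCm38.p6), with every CG dinucleotide, the site of DNA methylation and of CpG islands, in capitals.
Six6 (chr12:72939632-72939931, plus strand): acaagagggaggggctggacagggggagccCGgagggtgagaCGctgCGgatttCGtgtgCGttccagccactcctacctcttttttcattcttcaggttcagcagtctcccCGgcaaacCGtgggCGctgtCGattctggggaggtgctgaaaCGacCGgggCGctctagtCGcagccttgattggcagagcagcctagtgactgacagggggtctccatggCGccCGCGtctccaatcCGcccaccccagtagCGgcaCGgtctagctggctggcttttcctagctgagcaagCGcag
Six3 (chr17:85620584-85620883, plus strand): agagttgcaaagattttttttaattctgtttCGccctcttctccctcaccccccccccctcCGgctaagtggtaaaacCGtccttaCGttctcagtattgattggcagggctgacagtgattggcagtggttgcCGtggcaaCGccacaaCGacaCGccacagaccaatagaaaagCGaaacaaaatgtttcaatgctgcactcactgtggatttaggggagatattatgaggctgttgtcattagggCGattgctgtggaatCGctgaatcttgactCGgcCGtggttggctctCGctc
Six2 (chr17:85688205-85688504, minus strand): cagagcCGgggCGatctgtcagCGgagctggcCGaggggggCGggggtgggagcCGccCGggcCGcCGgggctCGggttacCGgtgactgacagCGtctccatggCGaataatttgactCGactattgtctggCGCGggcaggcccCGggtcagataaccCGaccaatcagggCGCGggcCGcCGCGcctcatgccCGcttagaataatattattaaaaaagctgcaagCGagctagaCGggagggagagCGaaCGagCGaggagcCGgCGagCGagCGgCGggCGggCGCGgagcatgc
The promoter of Six6 held 20 CG dinucleotides in its 300 bases, that of Six3 held 14 and that of Six2 held 37, against a median of 7 over 32851 promoters. At least as many CG as in Six2 were found in 5.58% of promoters, while the shares for Six6 and Six3 were 26.5% and 36.3%. RefSeq placed this Six3 start at 85620834, inside the gene as GENCODE draws it. Peaks over the Six3 start were called at the GENCODE start, 85613608. The other members had 17 (Six5) and 16 and 15 (the listed Six4 starts), so the genes without the mark were not poorer in CG than Six3. The motif TCAGGTT, the core of the MEF3 element that proteins of the family bind, was searched on both strands and occurred in the promoters of Six6 and of 1 listed Six4 start, and in 4.07% of all promoters. The motif holds no CG, and a match is a description of letters only.

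Six6, which directs the growth of retina and pituitary progenitors, carried the longest H3K27me3 coverage of the 5 genes in H3WT. The gene lies on chromosome 12 (72939892 to 72944899, plus strand), and its window of 105.0 kb was covered over 53.2% and 60.5% of its length in the H3WT libraries. In H3R2C the covered share was 18.8% and 16.8%. In H3R8C it was 54.2% and 60.6%. H3R8C overlapped with H3WT, and both H3R2C libraries lay below it.

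In H3R26C the 2 libraries had 13.3% and 2.95% of the Six6 window covered, and the single H3R17C library had 23.6%. Means were 56.9% ± 5.18 in H3WT, 17.8% ± 1.41 in H3R2C, 57.4% ± 4.48 in H3R8C and 8.12% ± 7.31 in H3R26C (SD, n = 2 each). The order from high to low was thus H3R8C and H3WT, which overlapped, then H3R17C, H3R2C and H3R26C, and the last pair did not overlap in their libraries. The H3R2C library 1-2 covered 130.0 Mb genome-wide, the most of all 9 lists, while it covered 18.8% at Six6.

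**Figure D1:**
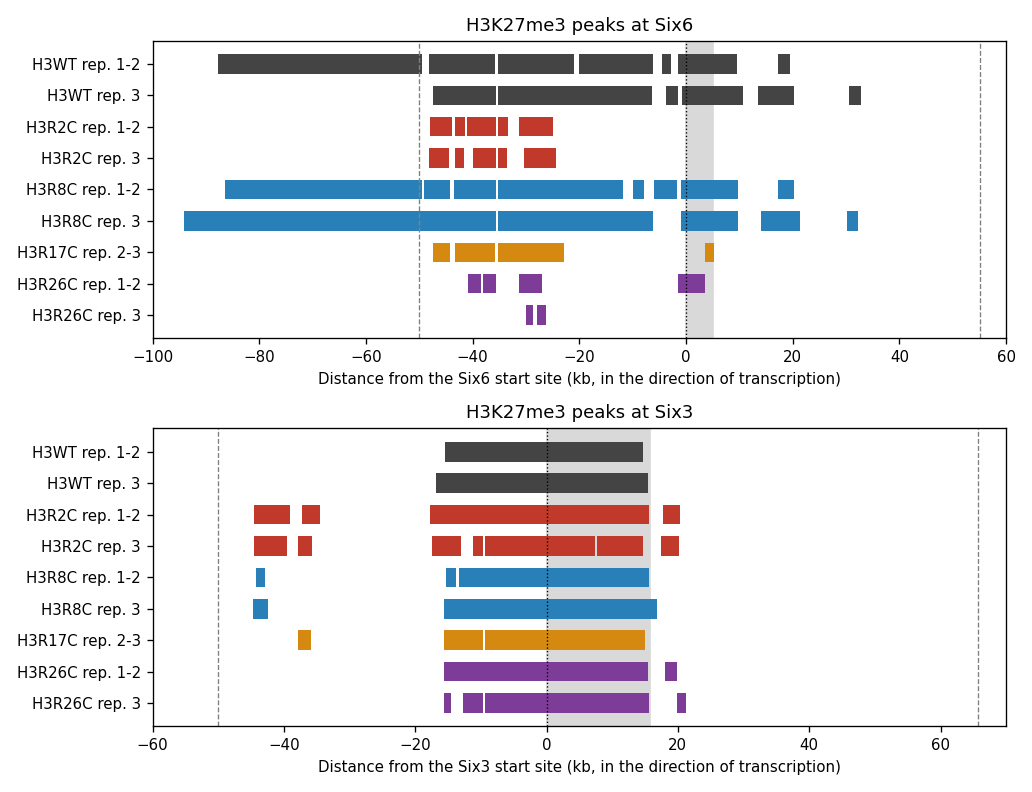
H3K27me3 peaks (coloured bars, 1 row per independent library) by distance in kb from the start site of Six6 (top) and Six3 (bottom); grey shading marks the gene and dashed lines the ends of the window. Peaks flank and span the Six6 start in H3WT and H3R8C, while H3R2C has peaks only upstream of it; a peak spans the Six3 start in every library.

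**Figure D2:**
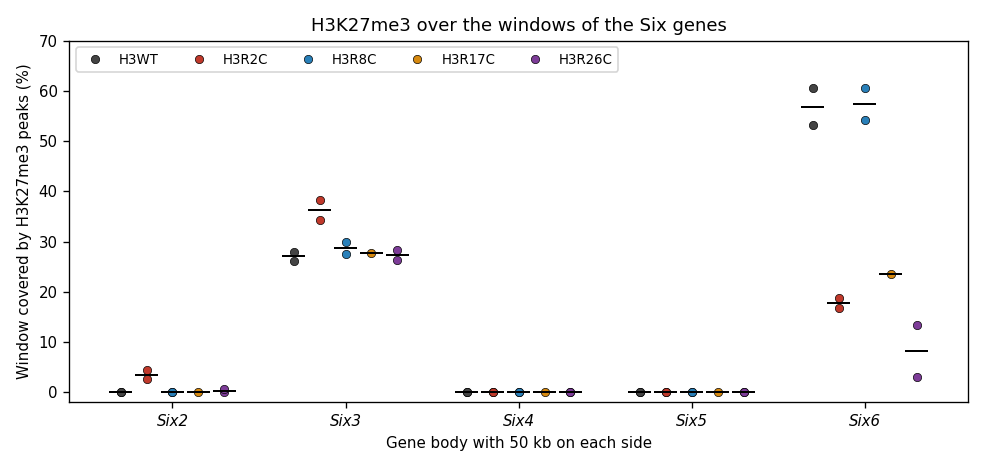
Percent of each window (gene body with 50 kb on each side) covered by H3K27me3 peaks; points are independent libraries coloured by genotype and black bars are means. At Six6 the H3WT and H3R8C libraries lie between 53.2% and 60.6% and the others between 2.95% and 23.6%; Six4 and Six5 are at 0 throughout.

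Signal told the same order as width. Summed peak signal in the Six6 window was divided by the median window of its library, taken over 6128 windows with a peak in every H3K27me3 library, so that 1 stands for a typical marked window. This scaled H3K27me3 signal was 4.87 and 4.18 in H3WT, 5.52 and 5.2 in H3R8C, 0.85 and 1.13 in H3R2C, 2.14 in H3R17C, and 0.508 and 0.194 in H3R26C. The H3R8C libraries lay just above H3WT and all other mutant libraries below it.

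On the scale of log2(scaled signal + 0.25), the Six6 window differed from H3WT by -1.95 in H3R2C, 0.23 in H3R8C, -0.99 in H3R17C and -3.04 in H3R26C, while group SDs ran from 0.06 to 0.55. Among 8968 windows with a peak in both H3WT libraries, these values ranked 227 from the lowest in H3R2C, 173 in H3R17C and 16 in H3R26C, and 7127 in H3R8C. The medians over those windows were -0.05, -0.04, -0.09 and -0.01 in the same order. Falling below both H3WT libraries was common across windows, at 37.0% in H3R2C, 41.5% in H3R17C, 38.9% in H3R26C and 28.4% in H3R8C. Six6 was selected on these values, and nothing is read from its place among the windows. The highest point of the peaks changed less than their sum, with log2 differences of the maximum signal of -0.55 in H3R2C, -0.23 in H3R17C and -1.06 in H3R26C.

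A ratio formed inside each library does not depend on the scaling between libraries. Total H3K27me3 signal of the Six6 window divided by that of the Six3 window was 1.19 and 0.979 in H3WT and 1.15 and 1.16 in H3R8C. The ratio was 0.29 and 0.266 in H3R2C and 0.46 in H3R17C. It was 0.108 and 0.0296 in H3R26C. These ratios are compared between genotypes and not as levels of the genes, whose windows differ in length.

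The start site of Six6 repeated this pattern with an exception. A peak within 1 kb of the start was listed in both H3WT and both H3R8C libraries, in neither H3R2C library, not in the H3R17C library and in 1 of the 2 H3R26C libraries (1-2). Its total signal was 84550 and 96400 in H3WT, 101550 and 119750 in H3R8C and 17150 in H3R26C 1-2. The lowest total signal in those lists was 4550 to 6350. In length the start peak was 11.0 and 11.4 kb in H3WT, 10.7 and 10.8 kb in H3R8C and 5.05 kb in H3R26C 1-2. Counted as lost where both H3WT libraries had the peak and no mutant library did, 1 member was lost in H3R2C, 1 in H3R17C and 0 in H3R8C and H3R26C, but without H3R26C 1-2 the count in H3R26C was 1. Of 1942 starts marked in both H3WT libraries, 26.1% were lost in H3R2C, 16.2% in H3R17C, 9.37% in H3R26C and 4.22% in H3R8C. The member counts rest on Six6 and Six3 alone, as these were the members with the mark in H3WT.

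In H3R2C the far block of the Six6 window stayed listed while its start-site block did not. In H3R26C peaks were short or absent in every block. The far block, chr12:72891801-72904150 (-48.1 to -35.7 kb from the start, where negative is upstream), was covered over 99.6% and 94.7% in H3WT, and its share was 91.9% and 78.5% in H3R2C and 85.8% in H3R17C. In H3R26C it was covered over 37.2% and 0%. Scaled signal of the far block was 1.4 and 0.876 in H3WT, 0.492 and 0.659 in H3R2C, 1.1 in H3R17C, and 0.172 and 0 in H3R26C. The far block was thus largely listed in H3R2C, though with less signal than in either H3WT library, and mostly absent in H3R26C.

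The middle block, chr12:72904551-72933600, was covered over 96.7% and 99.8% in H3WT, and over 28.7% and 27.2% in H3R2C, 43.2% in H3R17C, and 14.8% and 10.7% in H3R26C. The start-site block, chr12:72938451-72950500, spans 12.1 kb and the whole gene, and it was covered over 91.3% and 95.0% in H3WT and 88.8% and 89.2% in H3R8C. In H3R2C it held no peak at all, in H3R17C 13.7% was covered, and in H3R26C 41.9% and 0%. It was thus empty in both H3R2C libraries and in H3R26C 3, whose nearest peaks lay 25.0, 24.3 and 26.2 kb from the start. Only H3R26C 1-2 set the H3R26C group apart from H3R2C here, with a short peak kept on the start.

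The far block is the near end of a longer domain in part of the libraries. Single peaks ran from -87.7 to -49.4 kb in H3WT 1-2 and from -94.1 to -35.7 kb in H3R8C 3, the latter 58.4 kb long. Further out at the window edge, chr12:72889892-72890500 was covered over 100% in H3WT 1-2 and both H3R8C libraries. It was not covered in H3WT 3 or in any H3R2C, H3R17C or H3R26C library. The far and middle blocks were parted by the same gap of 400 or 450 bases in 7 of 9 libraries, ending at 72904550, and the gap consisted entirely of repeat-masked sequence (100% against 33.4% of chromosome 12). Peak edges lie on a grid of 50 bases, which limits how exactly such edges can be placed.

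**Figure D3:**
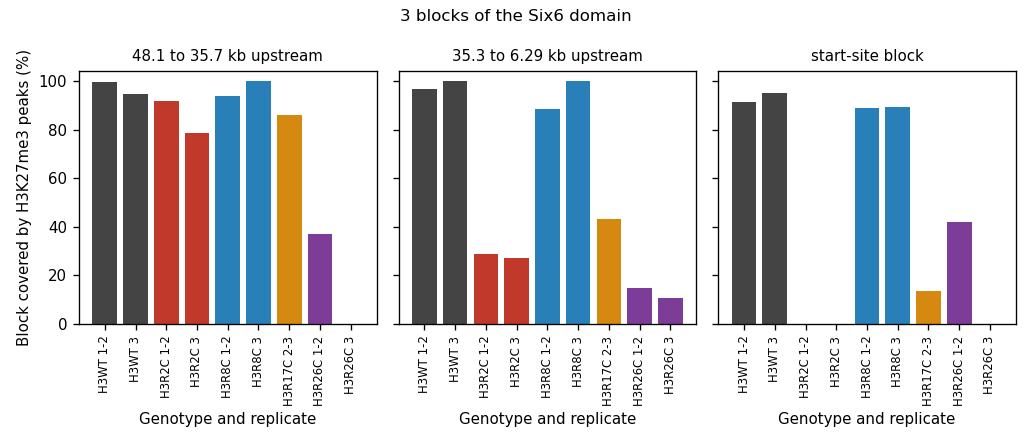
Percent of 3 blocks of the Six6 domain covered by H3K27me3 peaks in each independent library (bars, coloured by genotype; the left pair of blocks is named by distance from the start, the right panel is the block over the start). The far block is covered over 78.5% or more in H3R2C, where the start-site block is at 0.

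The start of 4930447C04Rik lies 0.882 kb from that of Six6. Its scaled H3K27me3 signal followed that of Six6, as the windows overlap, with means of 7.91 in H3WT, 2.45 in H3R2C, 10.0 in H3R8C, 4.71 in H3R17C and 0.466 in H3R26C. Across the 9 libraries the genes elsewhere whose log2 window signal was most like that of Six6 were Syt14 (Pearson r = 0.99), Gabrd (0.982) and Cfap74 (0.981), the top 3 of 3157 genes compared. The points are libraries of the same 5 genotypes and differ in depth, so the values are a description. Syt14 went from a mean of 6.93 in H3WT to 3.14 in H3R2C and 1.82 in H3R26C, which follows largely from picking genes by correlation with Six6.

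Six3, which specifies the forebrain and the eye field and is the closest relative of Six6, kept its domain in every genotype. It lies on chromosome 17 (85613608 to 85629302, plus strand), and its window is 116 kb long. A peak over the start was present in 9 of 9 libraries. This was so for 857 genes, 3.91% of all, out of the 1942 starts marked in both H3WT libraries, so it was not rare among marked starts. The start of Six3os1, the antisense RNA at this locus, was under a peak in all 9 as well.

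The H3K27me3 share of the Six3 window was 26.1% and 28.0% in H3WT, 27.6% and 30.0% in H3R8C, 27.8% in H3R17C and 28.4% and 26.4% in H3R26C. In H3R2C it was 38.2% and 34.2%, above every other library. This difference of 9.14 percentage points from H3WT was 4.11 with the upper 50% of peaks of each list and 6.81 with an equal number of top peaks. The domain itself, chr17:85596751-85629100, was covered over 89.5% to 100.0% in all 9 libraries. The added length in H3R2C came from peaks outside it, 1 pair between -44.5 and -34.5 kb and 1 peak from 17.4 to 20.3 kb past the start, listed in both H3R2C libraries. Shorter peaks at these places also occurred in some H3R8C, H3R17C and H3R26C lists and in no H3WT list.

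Scaled H3K27me3 signal over Six3 was 4.09 and 4.27 in H3WT, 2.93 and 4.26 in H3R2C, 4.78 and 4.48 in H3R8C, 4.66 in H3R17C, and 4.72 and 6.55 in H3R26C. H3R2C overlapped with H3WT, and the other mutants lay above it by less than 1 on the log2 scale. Those log2 differences were -0.23 in H3R2C, 0.14 in H3R8C, 0.15 in H3R17C and 0.39 in H3R26C. With the signal as deposited they were -0.29 in H3R17C and -0.12 in H3R26C. H3R2C was at 0.02 without H3R2C 1-2 and 0.04 by maximum signal, and H3R8C was at -0.09 by maximum signal. No direction thus held across settings in any mutant. The genes most like Six3 in pattern were H2-T3 (r = 0.972), 4933407L21Rik (0.97) and Pax2 (0.965).

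Six2, which maintains nephron progenitors in the kidney, had almost none of the mark. It lies on chromosome 17 (85684277 to 85688274, minus strand), 74.7 kb from the Six3 start, and their windows overlap by 45.0 kb. No H3K27me3 peak was listed in the Six2 window in H3WT, H3R8C or H3R17C. In H3R2C, a peak of 2.3 or 2.65 kb lay 33.0 and 32.7 kb upstream of the start, library 1-2 had another of 2.2 kb, and the covered share was 4.33% and 2.55%, with 0.6% in H3R26C 3 from the edge of the window. Scaled signal reached 0.133 and 0.121 in H3R2C, far below a typical marked window. Reg4, Piwil4 and Fahd2a were closest in pattern (r = 0.97, 0.965 and 0.963), all with their highest mean in H3R2C. Six2 had its own highest mean there, so this trait follows largely from picking genes by correlation with Six2.

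Six4, which acts in muscle and kidney development, and Six5, known from its place beside the myotonic dystrophy gene Dmpk, had no H3K27me3 peak anywhere in their windows in 9 of 9 libraries. This held for 41.1% of all genes, and a start free of the mark in all 9 held for 82.6%, Six2 included. Six4 lies on chromosome 12 (73099609 to 73113456, minus strand), 174 kb from Six6. Its nearest H3K27me3 peak was 141 to 200 kb from the start, and its window stayed empty beside both a full and a reduced Six6 domain. Six5 lies on chromosome 7 (19094594 to 19098549, plus strand), 0.773 kb past the end of Dmpk, whose window was equally empty, and its nearest peak was 70.2 to 119 kb away. No member gained a peak over the start in any mutant, where 1.09% of unmarked starts did so in H3R2C, 0.823% in H3R8C, 0.600% in H3R17C and 0.921% in H3R26C.

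The genes that act with the family were compared by lists chosen for their roles. Of the 6 partners, Eya1 and Eya2 had a start peak in both H3WT libraries, and Eya1, the coactivator of early kidney and ear development, lost it in H3R2C. The mean scaled H3K27me3 signal of the Eya1 window was 3.11 in H3WT, 0 in H3R2C, 3.31 in H3R8C, 1.56 in H3R17C and 1.2 in H3R26C. Eya1, like Six6, was thus lower than H3WT in H3R2C, H3R17C and H3R26C, but with H3R2C and H3R26C in the reverse order. Eya2 went from 3.88 in H3WT to 2.37 in H3R2C and 3.5 in H3R26C, and the corepressor Dach1 gained a start peak in H3R8C (0 to 0.605). Eya3, which had no peak in its window, and Eya4 and Dach2, with none over the start, neither lost nor gained a start peak.

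Of the 5 eye field genes, all marked at the start in H3WT, 2 lost the start peak in H3R2C and 0 in the other mutants. These were Pax6, the regulator of eye formation (0.985 in H3WT, 0 in H3R2C, 2.29 in H3R26C), and Vax1, which acts in the optic stalk (5.38, 1.56 and 5.93). Otx2, a forebrain and retina factor, kept a start peak in 1 of 2 H3R2C libraries, with a log2 difference of -2.17. In H3R26C, where the Six6 difference was -3.04, the eye field genes differed from H3WT by -0.79 (Lhx2) to 1.02 (Pax6).

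In the kidney list, 3 of 5 genes were marked at the start, and Pax2 kept a mean of 14.3 to 22.8 in every genotype. Wt1 lost its start peak in H3R2C and in the single H3R17C library, and 1 of 2 H3R8C libraries kept it. The mean scaled signal of the Wt1 window was 0.866 in H3WT, 0 in H3R2C, 0.317 in H3R8C, 0.75 in H3R17C and 1.61 in H3R26C. Gdnf, the ligand that draws the ureteric bud, had 0.142 in H3WT and 1.19 in H3R2C. Of the 6 muscle genes, Pax7 and Myod1 were marked at the start and 0 lost it in every library of a mutant. Pax7, the satellite cell factor, kept a start peak in 1 of 2 H3R2C libraries, with a log2 difference of -1.92. Over the 4 lists, 4 of 12 marked starts were lost in H3R2C, 1 in H3R17C and 0 in H3R8C and H3R26C, beside the all-gene shares given above.

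**Figure D4:**
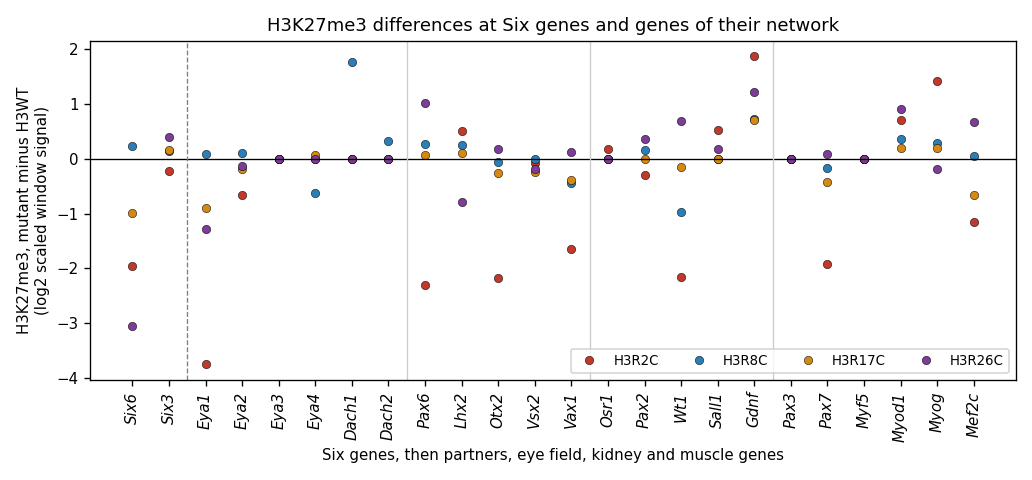
Difference of each mutant from H3WT in mean log2(scaled H3K27me3 window signal + 0.25) for Six6 and Six3, left of the dashed line, and for partners, eye field, kidney and muscle genes, parted by grey lines. Six6 is at -3.04 in H3R26C and -1.95 in H3R2C, while Eya1 and Pax6 reach -3.75 and -2.3 in H3R2C.

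The HA lists place the tagged histone itself and were not used in choosing the genes, so they were tested. Scaled HA signal was computed as above with 7946 windows listed in every library, and limma was fitted to 17898 windows with an HA peak in at least 2 of the 10 libraries. Adjusted p is by the Benjamini-Hochberg method over all these windows, with a threshold of 0.05. Labels do not say that replicates came from separate cultures, so p-values measure the spread between these libraries. Within 1 kb of a GENCODE start site, HA peaks were listed only in H3R2C, at Six2 in both libraries and at Six3 and Six4 in library 3. The Six2 peak of library 1-2 ended 0.977 kb from the start, and the Six3 peak 0.508 kb from it, so neither covered the start itself. Within 1 kb of the RefSeq start of Six3, both H3R2C libraries listed an HA peak, at 85619651-85620450 (1-2) and 85619251-85620500 (3). Neither of these reached that start. No HA peak was listed within 1 kb of the start of Six5 or Six6 in 10 libraries, as at 57.2% of all genes. Library 3 of H3R2C had HA peaks over 21.1% of all starts, the most of the 10 lists, and library 1-2 over 12.0%, beside 7.95% to 16.3% in the other 8.

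Six3 was the only member whose HA signal passed the test. Its scaled HA signal was 0.603 and 0.503 in H3R2C, 0.00428 and 0 in H3WT, 0 and 0.0806 in H3R8C, 0.0997 and 0 in H3R17C, and 0 in both H3R26C libraries. Both H3R2C libraries lay above the other 8. The log2 difference from H3WT was 1.67 ± 0.28 (SE, 2 libraries a group; limma adjusted p = 0.00394), against a median over windows of 0.30. In H3R2C 20.9% of windows passed, 3122 higher and 612 lower, so that 1 of 5 members is near the background share.

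Since H3WT was at or near 0 over Six3, the size of that difference depends on the pseudocount, and it was 3.53 with 0.05 and 0.63 with 1. With an equal number of top peaks from each list it was 0.29 (limma adjusted p = 0.387), and with H3R2C and H3WT fitted alone the limma adjusted p was 0.0988. The single HA peaks of H3R2C in this window had scaled signals of 0.0816 to 0.15, beside lowest listed peaks of 0.149 in H3WT 1-2 and 0.0552 in H3WT 3. Of these 10 peaks, 5 of 5 in library 1-2 and 4 of 5 in library 3 lay under the lowest of H3WT 1-2, and the part of list levels in the difference was not tested.

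Six2 had scaled HA signals of 0.252 and 1.03 in H3R2C and 0.178 and 0.12 in H3WT. Its log2 difference of 1.01 ± 0.4 (SE) did not pass (limma adjusted p = 0.0883), though without H3R2C 1-2 it was 1.69 (limma adjusted p = 0.00403), and it was negative, at -0.67, with the signal as deposited. H3R8C lay below H3WT with 0.0638 and 0.0806, and no HA peak was listed in either H3R17C or H3R26C library. Those differences of -0.31, -0.67 and -0.67 did not pass either (limma adjusted p = 0.922, 0.473 and 0.478).

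At Six6, where H3K27me3 differed most, HA signal did not pass in any mutant. It was 0.603 and 0.377 in H3WT, 0.777 and 0.166 in H3R2C, 0.453 and 0.965 in H3R8C, 1.01 and 0.424 in H3R17C, and 0.156 and 0.212 in H3R26C. Only the H3R26C libraries did not overlap with H3WT, with a log2 difference of -0.76 ± 0.5 (SE; limma adjusted p = 0.549). It passed with the signal as deposited (-2.90, limma adjusted p = 0.037) and on the percent of the window covered (-18.45 percentage points, limma adjusted p = 0.0423), measures in which the wider peaks of the H3WT lists count in full. The differences were -0.16 in H3R2C, 0.34 in H3R8C and 0.33 in H3R17C, with limma adjusted p of 0.856, 0.94 and 0.788. On the same alternative measures H3R2C passed as well (-2.65 as deposited, limma adjusted p = 0.0189, and -17.81 percentage points, limma adjusted p = 0.028). H3R17C turned negative and passed (-2.25, limma adjusted p = 0.0352, and -15.33 percentage points, limma adjusted p = 0.0498), so a lower HA value on these measures was not particular to H3R26C.

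Six4 had 0 and 0.493 in H3WT and 0.298 to 1.43 in the mutants, with log2 differences of 0.72 in H3R2C, 1.56 in H3R8C, 1.26 in H3R17C and 1.15 in H3R26C. None passed (limma adjusted p of 0.304 to 0.359), and without H3WT 1-2, the library listed at 0, the differences were -0.06, 0.78, 0.47 and 0.36 in the same order. Six5 ranged from 0 to 0.383 over all 10 libraries, with differences of -0.21 to 0.33 and limma adjusted p of 0.941 or more. In H3R8C, H3R17C and H3R26C limma called 0% of windows each, with 1706, 2574 and 2727 windows under an unadjusted p of 0.05, and other settings gave other counts. The HA data thus hold no called difference of a member outside H3R2C under the design used.

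**Figure D5:**
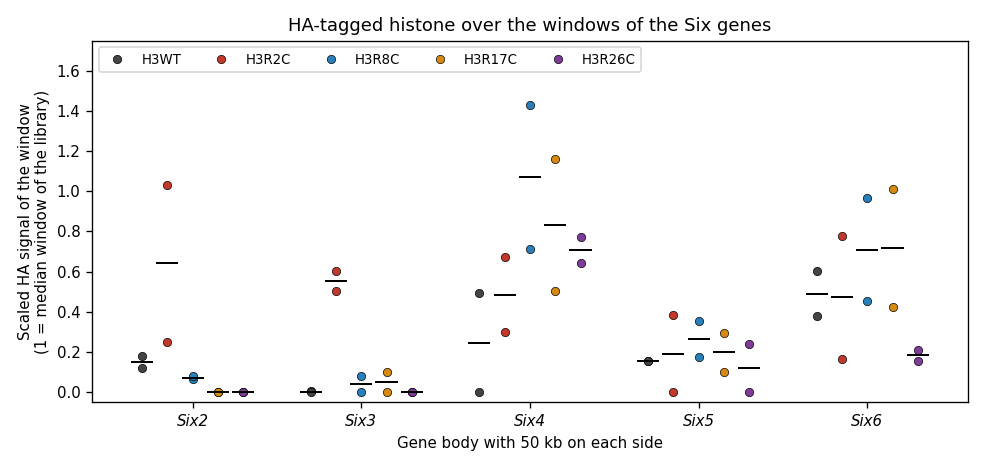
Scaled HA signal of each window (1 is the median window of the library); points are independent libraries coloured by genotype and black bars are means. At Six3 the H3R2C points lie at 0.503 and 0.603 and all others at 0.0997 or below, while at Six6 the H3R26C libraries lie below both H3WT libraries and the other mutants overlap with H3WT.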

How the data were processed

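Peak lists of 30 samples were used, and genotype, antibody and replicate came from the sample titles. Per the methods of the study and the labels, the authors aligned single-end reads with Rsubread (mm10) and ran SEACR 1.3 to call peaks (stringent, norm, 0.01), 1 list per sample. The deposited lists give the total and the maximum signal of each peak, as whole numbers not scaled for depth. The lists hold no read totals. The study states totals per labelled sample, which differ between libraries and most among the HA samples. Counting intervals were not computed from them. ChIPseeker 1.28.3 and DESeq2, which the authors used, were not used here.

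Members and gene lists were chosen with earlier results of these data known. Named genes were the 5 members, genes in their windows, lists of partners, eye field, kidney and muscle genes, and the 3 genes most correlated with each member. Windows and starts came from GENCODE M21. Signal of a peak crossing a window edge was taken in proportion to the overlap. Identical lists were counted once. The start window reached 1 kb each side, an overlap of 1 base sufficed, and log2 values used a pseudocount of 0.25. HA windows were fitted with limma 3.58.1 in R 4.3.3 (lmFit, eBayes with trend, 5 genotypes sharing 1 spread). The script was tested on data simulated from windows with HA signal in every library. That test does not cover windows at 0 in some libraries, such as that of Six3. The study modelled counts, whereas the lists hold signal. Python 3.11.15, numpy 2.4.6 and pandas 2.3.3 were used. Alternatives covered peak thresholds, start and window sizes, scaling, pseudocounts, filters, maximum signal, coverage, the variance model, a block for the replicate number, and each library left out in turn.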

Additional observations from a re-analysis of the deposited data

Results flagged for a closer look

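The H3R17C replicate 1 list labelled H3K27me3, which no comparison used, had peaks over the starts of Six2 (total signal 33200, chr17:85684501-85690900) and Six4 (total signal 28700, chr12:73107451-73114100), where the 9 H3K27me3 lists used had none. It had none over Six3, Six5 or Six6. In this list 38.6% of genes had a peak over the start, with 7 of 7 mesenchymal markers, 5 of 5 housekeeping genes and 0 of 5 neural genes. The Jaccard index of its peaks with the 9 lists was 0.00191 to 0.00309. What the list holds was not tested.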

How the results depend on the processing

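Member counts of lost and gained start peaks kept their values under every alternative run, except that without H3R26C replicates 1-2 the count lost in H3R26C was 1 (range 0 to 1 over libraries left out). The covered share of the Six6 window kept its direction in H3R2C, H3R17C and H3R26C. Its difference from H3WT in percentage points was -70.6, -64.0 and -60.5 with a flank of 10 kb, -27.4 and -21.6 (H3R2C and H3R17C) with 100 kb, and -53.9 to -43.6 in H3R26C over libraries left out. The log2 signal difference of Six6 in H3R2C was -1.47 with a pseudocount of 1 and -0.55 by maximum signal. In H3R17C it was -1.4 as deposited and -0.23 by maximum signal. In H3R26C it was -3.63 and -2.04 with pseudocounts of 0.05 and 1, -1.06 by maximum signal and -3.42 to -2.65 over libraries left out. Six3 turned from 0.39 to -0.12 in H3R26C and from 0.15 to -0.29 in H3R17C as deposited. By maximum signal Six3 turned from -0.23 to 0.04 in H3R2C, from 0.14 to -0.09 in H3R8C and from 0.15 to -0.06 in H3R17C. No library could be left out of H3R17C with anti-H3K27me3.

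HA windows called by limma (3734 in H3R2C and 0 elsewhere) numbered 8256 in H3R2C, 7773 in H3R17C and 4683 in H3R26C with the signal as deposited. On percent covered they numbered 6316, 1761, 5369 and 3018 (H3R2C, H3R8C, H3R17C, H3R26C), and with no filter 2375, 13, 106 and 10. Equal top peaks gave 965 in H3R2C. Fits of 2 genotypes gave 0 in H3R2C and 223 in H3R26C. Leaving out a library gave 920 to 3655 in H3R2C, 0 to 2 in H3R8C, 0 in H3R17C and 0 to 493 in H3R26C, with 920 without H3WT replicates 1-2, 1467 without H3WT replicate 3 and 2120 without H3R2C replicates 1-2. The cause was not tested.

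With the replicate block (1-2 against 3) limma called 3858 windows in H3R2C, 1 in H3R8C, 1 in H3R17C and 236 in H3R26C, and no member changed its call. Deviations of same-numbered libraries correlated between genotypes from -0.036 to 0.171 (over 0.1 in 3 of 10 pairs). This does not show that the numbers pair the samples, nor that they do not, and the block was kept as an alternative.

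Uncalled HA differences of members turned sign as follows. As deposited, H3R2C gave -0.67 (Six2) and -0.18 (Six4), H3R8C gave -1.19 (Six5) and -1.69 (Six6), and H3R17C gave -1.69 (Six5) and -2.25 (Six6, adjusted p = 0.0352 by limma). In percent covered the values were -0.67 (Six2) and -1.18 (Six4) in H3R2C, -2.45 (Six5) and -12.17 (Six6) in H3R8C, and -3.94 (Six5) and -15.33 (Six6, adjusted p = 0.0498 by limma) in H3R17C. Scaled to list totals, H3R17C gave -0.17 (Six5) and -0.18 (Six6). Equal top peaks gave -0.01 for Six3 in H3R8C and H3R17C and -0.4 for Six5 in H3R17C, and a pseudocount of 1 gave 0.03 for Six5 in H3R2C. Where leaving out 1 library turned the sign, the values ranged in H3R2C from -0.06 to 1.51 (Six4), -0.69 to 0.65 (Six5) and -0.82 to 0.49 (Six6, 0.06 without H3WT 1-2), in H3R8C from -0.01 to 0.39 (Six3) and -0.06 to 0.73 (Six6), in H3R17C from -0.01 to 0.47 (Six3), -0.2 to 0.43 (Six5) and -0.12 to 0.79 (Six6), and in H3R26C from -0.69 to 0.28 (Six5). Six6 in H3R2C passed as deposited (-2.65) and in percent covered (-17.81), and Six2 as deposited in H3R17C and H3R26C (both -2.25).

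A block under the level of a list is absent from it, so a missing peak is not a level of 0, and 2 libraries a group limit what the spread can show.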
